A study of Homo sapiens with 24 samples.

Results

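The comparison described here asks which transcripts a streptavidin pull-down held when the bait was a scrambled microRNA mimic, that is, in the absence of miR-497-5p. It was made in H2052 cells, an established line of human pleural mesothelioma, 12 h after transfection. The members are the 3 pull-down libraries and the 3 RNA-seq libraries labelled with the control mimic at 12 h, 6 of the 24 libraries of the series. All 6 come from cells that received 20 nM of the same 3′-biotinylated, non-targeting mimic with Lipofectamine RNAiMAX, and all were made from poly(A)-selected RNA. The pull-down RNA was collected on streptavidin-coated magnetic beads incubated with cytoplasmic extract, whereas the RNA-seq libraries are the parallel input; the labels do not say whether that input was whole-cell RNA or RNA of the extract. Other groups drawn on below are the pull-down and RNA-seq libraries of the control mimic at 72 h and of the biotinylated miR-497-5p mimic at 12 h, 3 libraries each. The labels number the replicates without saying that they were separate cultures, so the p-values measure the spread between these libraries, which may be technical.

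In cells, a double-stranded mimic is loaded into an Argonaute protein, which holds a target mRNA through pairing with the seed of the guide strand; biotin on the guide lets streptavidin recover the complex. A scrambled mimic has no intended target, so its pull-down serves as the background against which a specific one is read. Some cellular proteins are themselves biotinylated, chiefly the carboxylases.

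The pull-down libraries held 18127272 to 18910429 counts assigned to genes and the RNA-seq libraries 26432049 to 30602007. Replicates were closer to each other in RNA-seq: the biological coefficient of variation was 0.202 in the pull-down and 0.0625 in RNA-seq. Pull-down library 3 stood apart from the other two: chi-square divided by its degrees of freedom was 31.3 against library 1 and 24.3 against library 2, beside 6.84 between libraries 1 and 2; results that rest on it are given with and without it. Mesothelial markers had counts in all 6 libraries, though UPK3B had only 1 to 3 counts per pull-down library and 6 to 10 per RNA-seq library. They differed in direction. MSLN, which encodes mesothelin, had 119 to 131 CPM (counts scaled to a fixed library total) in the pull-down and 75.3 to 77.1 CPM in RNA-seq. WT1 had 12.7 to 15.5 CPM in the pull-down and 20.3 to 24 CPM in RNA-seq. BNC1 had 22.2 to 25.5 CPM in the pull-down and 57.4 to 61.5 CPM in RNA-seq. CALB2, which encodes calretinin, stayed between 1.6 and 3.31 CPM in the pull-down and 1.4 and 2.16 CPM in RNA-seq. The summed level of 29 squamous epithelium markers varied within both groups, from 393 to 1080 CPM in the pull-down and from 543 to 1157 CPM in RNA-seq. Of these, KRT13 ranged from 2.91 to 230 CPM in the pull-down and from 50.1 to 161 CPM in RNA-seq, and none of the 29 was at 0 in all 6 libraries. PERP, KRT10 and PKP3 varied less in the pull-down (118 to 130, 91.3 to 127 and 82.5 to 97.1 CPM). They made up most of the 393 CPM of pull-down library 1. The 10 leukocyte markers summed to 8.05 to 16.1 CPM in the pull-down and 8.29 to 8.79 CPM in RNA-seq.

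More transcripts differed between pull-down and RNA-seq than did not. In edgeR's quasi-likelihood test on the deposited counts, 8773 of 15875 genes tested had a Benjamini-Hochberg adjusted p under 0.05 (55.3%). Of all genes tested, 26.8% were higher in the pull-down (4248 genes) and 28.5% lower (4525 genes). The difference was at least 2-fold for 1683 of the genes that rose (10.6% of those tested) and 1371 of those that fell (8.64%), and the median size among called genes was 0.81 on the log2 scale. The pull-down and RNA-seq ranges did not overlap for 63.3% of genes. These values are relative to a composition scaling (TMM); scaled by library totals, the median of all genes lay at -0.26 instead of -0.01, and 3016 genes were higher and 6221 lower, so 32.7% of calls were upward in place of 48.4%. Below, levels are TMM-scaled CPM, changes are log2 fold changes of pull-down over RNA-seq with their standard error, and every adjusted p comes from this edgeR test unless another is named.

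Transcripts of the mitochondrial genome, which are made and translated inside the organelle, were depleted. They took 1.08%, 1.37% and 2.03% of the counts in pull-down libraries 1, 2 and 3, against 4.12%, 4.13% and 3.92% in RNA-seq libraries 1, 2 and 3. The groups did not overlap, and library 3 was the highest of the pull-down. The mean was 1.49% ± 0.49 in the pull-down and 4.06% ± 0.115 in RNA-seq (SD, n = 3 each; two-sided exact permutation test, p = 0.1, the smallest that 3 against 3 libraries allow).

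Of the 13 mRNAs of the mitochondrial genome 11 fell and none rose, with a median of -1.1, beside 28.5% of all genes lower and a median of -0.01 over all genes. MT-CO1, which encodes a catalytic subunit of cytochrome c oxidase, had 3688, 4384 and 6860 CPM in the pull-down, against 14132, 14613 and 14260 CPM in RNA-seq. All 3 pull-down libraries lay below all 3 RNA-seq libraries, the third least so (-1.53 ± 0.2, adjusted p 0.000249). MT-ND4L, a small subunit of complex I whose reading frame overlaps that of MT-ND4, fell most (-2.05 ± 0.15, adjusted p 2.84e-06). MT-ND1 and MT-ND6, also subunits of complex I, did not pass (-0.37 ± 0.2, adjusted p 0.159, and -0.42 ± 0.22, adjusted p 0.146); for both, pull-down library 3 lay above RNA-seq. Without library 3 all 13 were lower, with a median of -1.4.

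**Figure D1:**
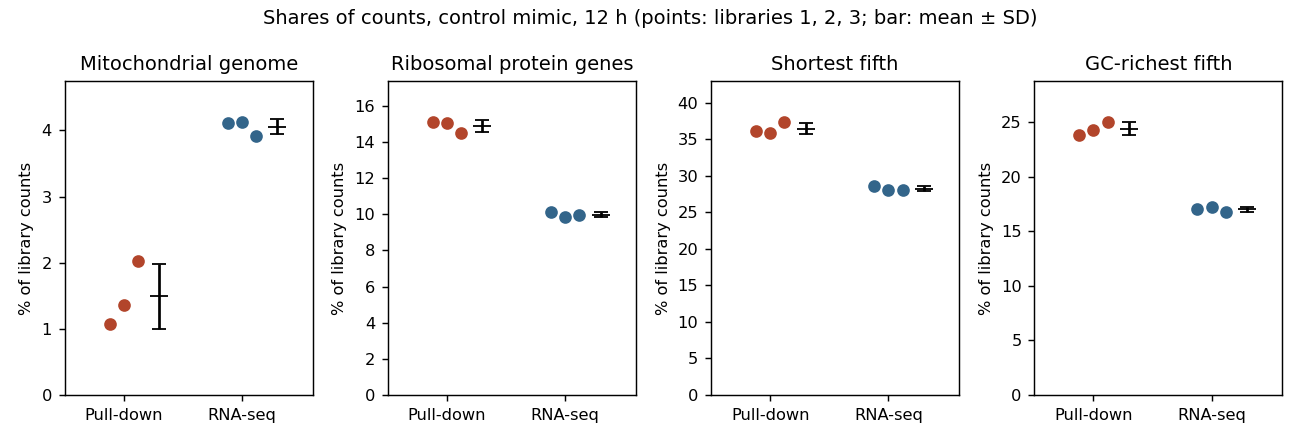
Percent of each library's counts taken by the mitochondrial genome, by the cytosolic ribosomal protein genes, and by the quintiles of tested genes with the shortest transcripts and the highest GC content, for the 3 pull-down (left) and 3 RNA-seq (right) libraries, with mean ± SD beside the points. Mitochondrial counts average 1.49% in the pull-down and 4.06% in RNA-seq, and the other 3 shares are larger in every pull-down library than in any RNA-seq library.

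Nuclear mRNAs for short proteins of ribosomes and of the respiratory chain went the other way. The 80 cytosolic ribosomal protein genes took 15.1%, 15.1% and 14.5% of the counts in the pull-down, against 10.1%, 9.85% and 9.98% in RNA-seq, again without overlap (mean 14.9% ± 0.333 and 9.99% ± 0.139, SD, n = 3 each; two-sided exact permutation test, p = 0.1). Of the 80, 64 rose, 6 fell and 10 did not pass, with a median of 0.86; scaled by library totals, 56 rose and 12 fell. RPS15, a protein of the small subunit, had 3050, 3123 and 3020 CPM in the pull-down and 730, 749 and 753 CPM in RNA-seq, a difference of 2.04 ± 0.06 (adjusted p 8.97e-08). RPS26, RPL36 and FAU, the last a fusion of a ubiquitin-like protein with RPS30, rose by 2.08 ± 0.06, 1.99 ± 0.06 and 1.86 ± 0.06 (adjusted p 8.97e-08 each). The 6 that fell were RPSA, RPS3A, RPL7, RPL17, RPL21 and RPL30 (-0.76 to -0.2), which are named because they are the exceptions. Ribosomal protein genes have many near-identical pseudogenes, and only uniquely placed reads were counted, so their levels are uncertain where copies share sequence.

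The respiratory chain genes of the nucleus, 78 in all, rose for 59 and fell for 11, with a median of 0.96. COX6B1, a subunit of cytochrome c oxidase, had 659, 663 and 743 CPM in the pull-down, against 180, 185 and 186 CPM in RNA-seq (1.91 ± 0.07, adjusted p 1.39e-07), whereas MT-CO1, of the same enzyme, fell. ATP5ME, a subunit of ATP synthase, rose by 1.95 ± 0.08 (adjusted p 1.63e-07); 61.6% of its exon bases also lie in exons of a gene on the opposite strand. Mitochondrial ribosomal proteins, which are encoded in the nucleus, rose for 43 of 76 and fell for 10 (median 0.4); without RNA-seq library 3, 6 were lower, and 17 were lower when scaled by library totals. MRPL23 rose most (2.42 ± 0.1, adjusted p 1.6e-07), with 236, 209 and 253 CPM in the pull-down and 42.7, 40.5 and 47.2 CPM in RNA-seq.

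Other very short mRNAs rose alongside. Of 28 tested genes for S100 proteins, thymosins, metallothioneins and other small proteins 22 rose and 2 fell (median 0.8); 1 fell when any 1 library other than pull-down library 3 was left out. TMSB10, thymosin beta 10, which binds actin monomers, had 12634, 11867 and 14418 CPM in the pull-down and 3747, 3693 and 3641 CPM in RNA-seq (1.81 ± 0.08, adjusted p 1.64e-07). TMSB4X, a paralog of TMSB10, had 5365, 4604 and 5759 CPM in the pull-down and 4654, 4649 and 4906 CPM in RNA-seq; the groups overlapped and it did not pass (0.15 ± 0.08, adjusted p 0.154). S100A6, a calcium-binding protein, rose by 2.09 ± 0.08 (adjusted p 1.45e-07), and LGALS1, which encodes the lectin galectin 1, by 1.65 ± 0.06 (adjusted p 1.45e-07). TMSB10, RPL8 and RPL13A were among the 10 genes with the most counts in the pull-down; of those 10, 9 rose or did not pass, and MT-CO1 fell.

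**Figure D2:**
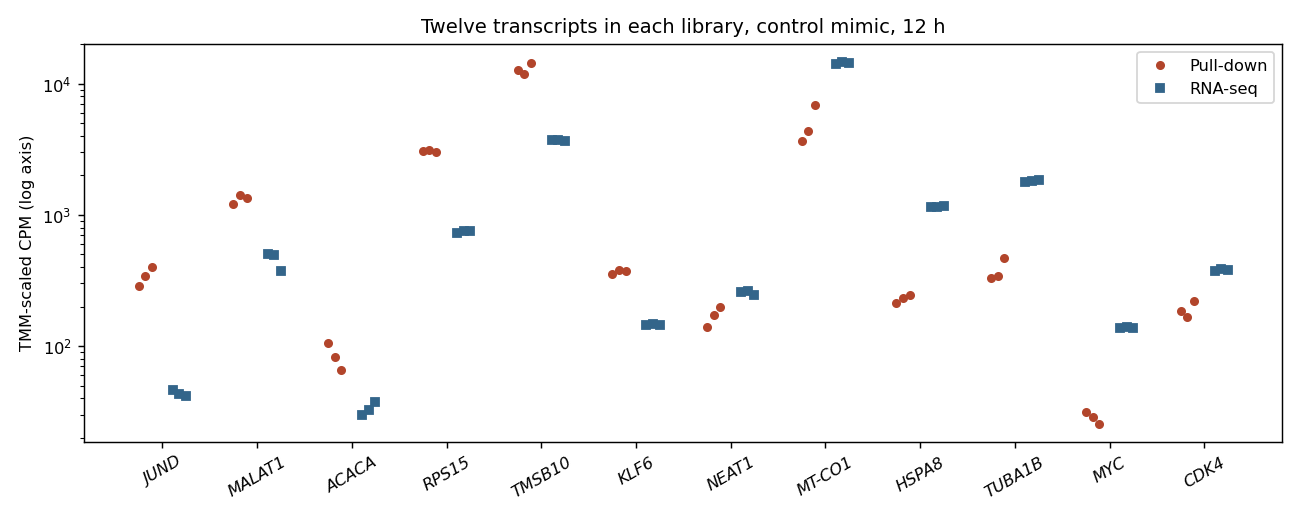
TMM-scaled CPM (log axis) of 12 named transcripts in the 3 pull-down (circles, left of each name) and 3 RNA-seq (squares, right) libraries. The first 6, from JUND to KLF6, lie higher in the pull-down and the last 6, from NEAT1 to CDK4, lower, with no overlap between the groups for any of the 12; JUND has 285 to 403 CPM in the pull-down and 41.6 to 46 CPM in RNA-seq.

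Giant mRNAs showed the reverse. Of 43 tested genes for the largest proteins 28 fell and 1 rose (median -0.59). AHNAK, a scaffold protein beneath the plasma membrane, had 256, 221 and 190 CPM in the pull-down and 476, 503 and 499 CPM in RNA-seq (-1.15 ± 0.1, adjusted p 9.21e-06). MKI67, the Ki-67 protein of dividing cells, fell by 1.48 ± 0.12 (adjusted p 4.58e-06). CENPE, a kinesin of the kinetochore, was the 1 that rose (0.33), and is named as the exception; no gene of the list rose without pull-down library 2, without any 1 of the RNA-seq libraries, with library totals, with no filter, with the replicate block or by limma voom.

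The change was graded by length across the whole transcriptome, and by base composition. By quintiles of the length of the canonical transcript (GENCODE 44, GRCh38), the median log2 fold change was 0.49 in the shortest quintile (66 to 1522 bases), 0.15, -0.06 and -0.25 in the next ones, and -0.27 in the longest (5579 bases and more). By quintiles of GC content it was -0.44 in the lowest (23.5% to 41%), then -0.31, -0.11 and 0.21, and 0.58 in the highest (58.4% to 76%). In the GC-richest quintile 54.3% of genes rose and 6.18% fell, and in the GC-poorest 11.5% rose and 48.4% fell. Spearman's rho across 15762 genes, which share the 6 libraries and are not independent, was 0.42 with GC content and -0.28 with length, and the 2 features were themselves correlated (-0.26).

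The median was higher at higher GC content within each tertile of length, whereas the order by length depended on GC content. From short to long it was 0.68, 0.37 and 0.17 in the GC-rich tertile, 0.17, -0.24 and -0.21 in the middle one and -0.08, -0.47 and -0.45 in the GC-poor one, so only the GC-rich tertile was graded throughout and in the other two the short transcripts stood above the rest. The number of exons (rho -0.21), the length of the protein (-0.25) and the length of the 3′ UTR (-0.24) followed transcript length. Chromosomes differed as well, and length and GC content were not compared by chromosome: the median was 0.42 on chromosome 19 and 0.36 on chromosome 22, whereas it was -0.42 on chromosome 13 and -0.33 on chromosome 4. With the trends of length and GC content taken out by an offset, added after seeing the data, 65 of the 80 ribosomal protein genes were still higher and 5 lower (median 0.93), and 22 of the 43 giant genes were lower and 2 higher (median -0.45).

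**Figure D3:**
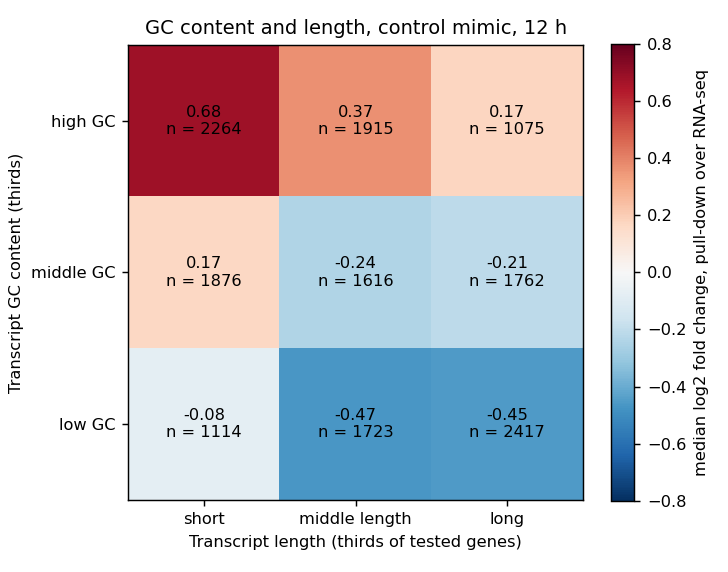
Median log2 fold change of pull-down over RNA-seq in 9 classes of tested genes, by tertile of transcript GC content (rows) and of transcript length (columns), with the number of genes in each. The median is highest, 0.68, for short GC-rich transcripts and lowest, -0.47, for GC-poor transcripts of middle length.

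Nuclear-retained long noncoding RNAs did not move as one group. Of 25 tested, 4 rose and 6 fell, with a median of -0.03; scaled by library totals, 1 rose and 8 fell. MALAT1, a very abundant RNA of nuclear speckles (chromosome 11, 65497640 to 65508073, 1 exon), had 1218, 1421 and 1350 CPM in the pull-down and 503, 491 and 377 CPM in RNA-seq. All pull-down libraries exceeded all RNA-seq libraries, 2.91-fold (1.54 ± 0.11, adjusted p 2.8e-06). NEAT1, its neighbour at 65422774 to 65445540, forms the paraspeckle and went the other way, with 140, 173 and 198 CPM in the pull-down and 257, 262 and 244 CPM in RNA-seq (-0.58 ± 0.11, adjusted p 0.00155). MIR100HG and LINC01278 also fell (-0.49 ± 0.11, adjusted p 0.003, and -0.54 ± 0.13, adjusted p 0.00556). Summed over the list, these RNAs took 0.182% ± 0.0137 of counts in the pull-down and 0.13% ± 0.0097 in RNA-seq (SD, n = 3 each; two-sided exact permutation test, p = 0.1), a sum in which MALAT1 alone held 0.122% and 0.05%. With the length and GC offset 5 of the 25 were higher and 0 lower, so none of the 6 losses, that of NEAT1 included, was called under that setting.

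Annotated lncRNA genes were more often higher than lower in the pull-down under TMM scaling. Scaled by library totals the median of all genes lay at -0.26, and this class was not counted under that scaling. Of 1391 tested, 22.6% rose and 10% fell (median 0.25); at a mean of at least 5 CPM, 41.8% of 237 rose and 18.1% fell (median 0.27), beside 32.6% and 37% of protein-coding genes (median -0.07). Their summed share did not separate the groups: they took 0.868%, 0.903% and 0.991% of counts in the pull-down, against 0.902%, 0.899% and 0.881% in RNA-seq, with overlap (two-sided exact permutation test, p = 0.7). Among 25 snoRNA host genes and cytoplasmic noncoding RNAs 11 rose and 2 fell (median 0.44); scaled by library totals, 10 rose and 5 fell. SNHG19 rose (1.55 ± 0.12, adjusted p 5.47e-06), while SNHG29 had 360, 335 and 479 CPM in the pull-down and 991, 1026 and 1009 CPM in RNA-seq (-1.37 ± 0.12, adjusted p 8.91e-06). MEG8, an imprinted RNA and host of snoRNAs on chromosome 14, rose 5.47-fold (2.45 ± 0.09, adjusted p 1.52e-07).

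Lists of messages translated at membranes held more members that fell than rose, beside 28.5% of all genes lower and 26.8% higher. Of 60 genes for plasma membrane proteins 31 fell and 15 rose (median -0.31; 8 rose when scaled by library totals), of 58 secreted and matrix proteins 25 fell and 14 rose (median -0.22), and of 49 folding and translocation genes of the endoplasmic reticulum 22 fell and 14 rose (median -0.14; 9 rose with library totals). ITGA6 and ITGB1, the integrin subunits alpha 6 and beta 1, fell by 1.75 ± 0.1 and 1.32 ± 0.07 (adjusted p 9.18e-07 and 3.65e-07). SLC7A5, a transporter of large neutral amino acids, had 1088, 1064 and 1098 CPM in the pull-down and 523, 552 and 569 CPM in RNA-seq (0.98 ± 0.06, adjusted p 1.06e-06).

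Members of these lists moved in both directions. TIMP1, a secreted inhibitor of matrix metalloproteinases, gained 1.74 ± 0.09 (adjusted p 5.38e-07) and SSR4, a subunit of the translocon-associated complex, 1.45 ± 0.09 (adjusted p 1.4e-06), whereas PDIA6, a protein disulfide isomerase, lost 1.44 ± 0.07 (-1.44, adjusted p 3.36e-07). Nuclear protein-coding genes were also classed by hydrophobic segments of the protein. Genes with 1 segment but no hydrophobic stretch near the N-terminus were in none of the 3 classes. Segments were counted over the whole protein, the N-terminus included. Genes with a hydrophobic stretch near the N-terminus and at most 1 segment had a median of 0.05 (1590 genes, 27.2% higher, 26.4% lower). Those with 2 or more segments had -0.03 (2235 genes, 23.4% higher, 28.5% lower), and those with neither -0.05 (8363 genes, 28.8% higher, 32.2% lower). Over all tested genes neither membrane class had a larger share of lower genes than the class with neither feature. The class with 2 or more segments had the smallest share of higher genes. At a mean of at least 5 CPM the medians were 0.03, -0.1 and -0.06, with 35.2%, 29.3% and 33.4% higher and 34.3%, 37.3% and 37% lower. The hydrophobic segments were computed from the translated reference transcripts, and over all tested genes the 3 medians lay within 0.1 of each other.

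Of 9 genes for biotin-carrying enzymes and biotin metabolism 1 rose and 3 fell; scaled by library totals, 1 rose and 7 fell. ACACA, acetyl-CoA carboxylase of the cytosol, which carries biotin (chromosome 17, 37084992 to 37406836, 56 exons), had 105, 82.9 and 65.2 CPM in the pull-down and 29.8, 32.3 and 37.5 CPM in RNA-seq. The groups were separate, with library 3 the lowest of the pull-down, and the gain was 2.54-fold (1.34 ± 0.16, adjusted p 7.6e-05). The transcript has 10013 bases, and in the quintile of longest transcripts 39.9% of genes fell and 16.2% rose. With the control mimic at 72 h ACACA was instead lower in the pull-down (-0.33 ± 0.1, adjusted p 0.02). Its levels there were 16.7 to 19.5 CPM in the pull-down and 23.2 to 24.3 CPM in RNA-seq, scaled over all libraries. The effect at 12 h was higher than at 72 h by 1.68 ± 0.21 (adjusted p 6.42e-06). MCCC1 and MCCC2, the subunits of methylcrotonyl-CoA carboxylase, fell (-0.88 ± 0.21, adjusted p 0.00566, and -0.78 ± 0.12, adjusted p 0.000316), as did BTD, biotinidase (-0.84 ± 0.3, adjusted p 0.0349), although BTD did not pass in 5 of the 6 fits that left out 1 library. PC, PCCA, PCCB, ACACB and HLCS, the pyruvate, propionyl-CoA and mitochondrial acetyl-CoA carboxylases and the enzyme that attaches biotin, lay between -0.42 and 0.3 and did not pass.

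Among the 15 genes with a symbol that rose most, by size of change at a mean of at least 5 CPM with groups apart, JUND carried many counts. JUND encodes an AP-1 subunit and is a single-exon gene (chromosome 19, 18279694 to 18281622, 69.9% GC). It had 285, 341 and 403 CPM in the pull-down and 46, 42.7 and 41.6 CPM in RNA-seq, 7.89-fold higher (2.98 ± 0.12, adjusted p 1.64e-07). H4C8, a replication-dependent histone H4 gene whose mRNA normally ends without a poly(A) tail, had 7.15, 11.1 and 19.6 CPM in the pull-down and 0.477, 0.577 and 0.82 CPM in RNA-seq (4.31 ± 0.4, adjusted p 1.42e-05). SCAND1, C4orf48, MRPL23, PET100, SNX22, ISG15, CCDC34, ZBTB20, IGDCC3, MEG8, NDUFA13, SURF2 and EEF1G made up the rest, at 2.19 to 2.61; ZBTB20 shares 49.7% of its exon bases with another gene. EEF1G, an elongation factor, stood near 10.8 CPM in the pull-down and 1.76 CPM in RNA-seq; 99.9% of its exon bases lie in exons of another annotated gene on the same strand, so its counts are uncertain.

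The 15 that fell most included abundant messages of protein folding, the cytoskeleton and the cell cycle. HSPA8, the constitutive HSP70 chaperone, had 211, 232 and 244 CPM in the pull-down and 1140, 1148 and 1170 CPM in RNA-seq, 5.03-fold lower in the pull-down (-2.33 ± 0.07, adjusted p 8.97e-08). TUBA1B, an alpha tubulin, had 329, 342 and 467 CPM in the pull-down and 1766, 1799 and 1842 CPM in RNA-seq (-2.25 ± 0.12, adjusted p 5.64e-07). MYC, the transcription factor, had 31.4, 28.9 and 25.4 CPM in the pull-down and 137, 139 and 137 CPM in RNA-seq (-2.27 ± 0.09, adjusted p 1.63e-07). For each of the 3 the groups were far apart.

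CKS1B, INCENP, CITED2, PAPSS2, NT5C2, TBC1D14 and ZNF384 fell by 2.25 to 2.79, and INSYN2B by 2.94. EIF2S3B, a retrocopy of EIF2S3, fell 13.8-fold (-3.79 ± 0.29, adjusted p 3.8e-06), and its level is uncertain because it shares sequence with its parent gene. MGAT2, CCNK and ARL2BP fell by 3.48, 3.18 and 2.88, but 91.9%, 59.5% and 84.5% of their exon bases also lie in exons of a gene on the opposite strand. Of all genes tested 2.73% share as much as 50% of their exon bases with another gene, and the strand setting of the counting is not stated in the labels.

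**Figure D4:**
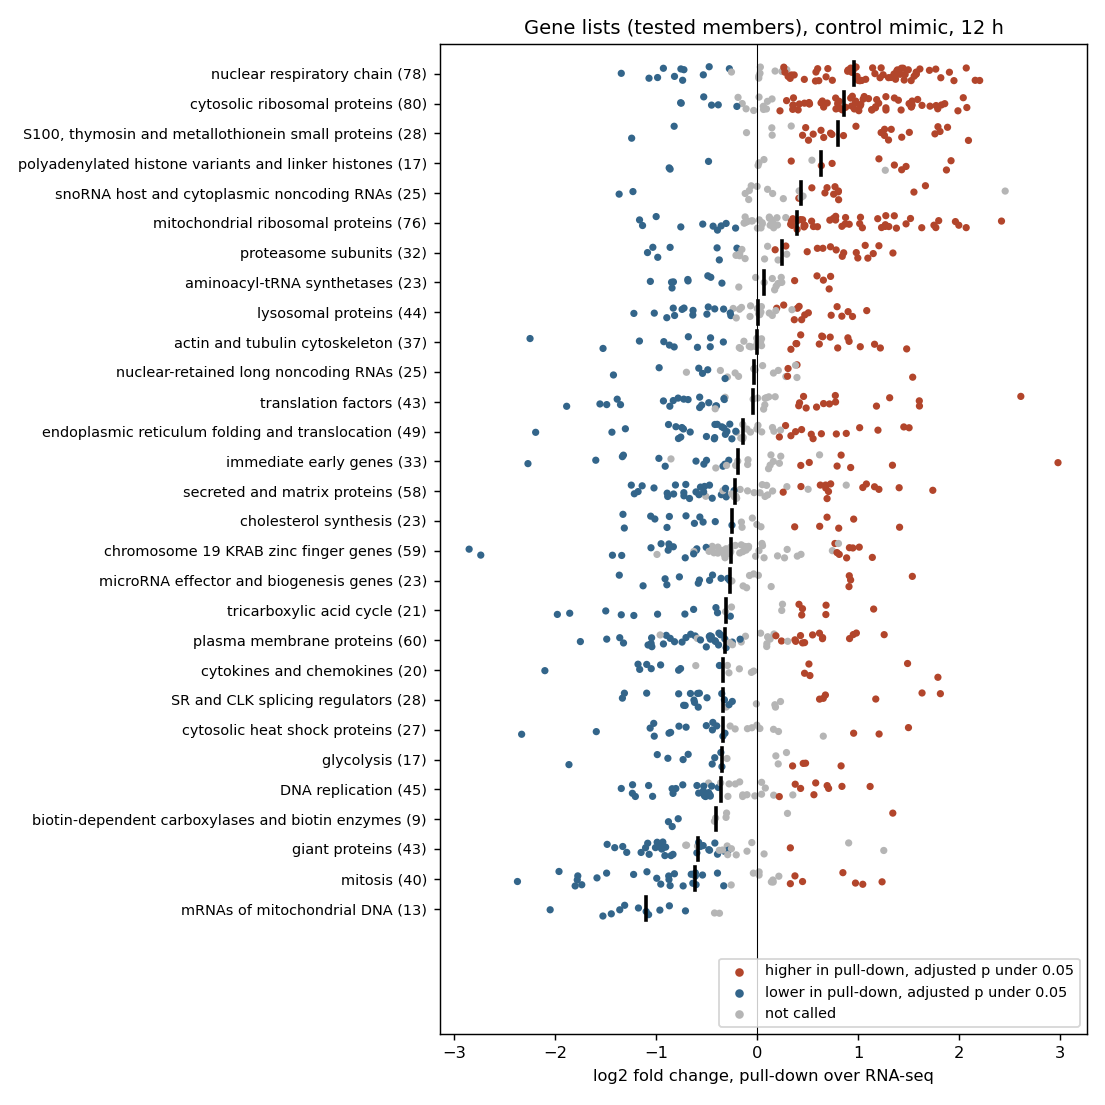
Log2 fold change of pull-down over RNA-seq for each tested member of 29 gene lists, ordered by the list median (black bar), with the number tested in brackets. Nuclear respiratory chain genes (median 0.96) and cytosolic ribosomal protein genes (0.86) lie at the top and mRNAs of mitochondrial DNA (-1.1) at the bottom.

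Growth and stress lists held members on both sides. Of 40 mitosis genes 25 fell and 7 rose (median -0.61; 4 rose with library totals); BUB1, a spindle checkpoint kinase, fell by 1.59 ± 0.09 (-1.59, adjusted p 7.55e-07), while UBE2C, an E2 enzyme of the anaphase-promoting complex, rose by 0.97 ± 0.06 (adjusted p 1.14e-06). DNA replication genes fell for 21 of 45 and rose for 9 (median -0.36), and splicing regulators of the SR and CLK families fell for 17 of 28 and rose for 6 (median -0.34). Heat shock genes fell for 15 of 27 and rose for 3 (median -0.34), and the 3 included the small chaperones HSPB1 (1.5 ± 0.06, adjusted p 1.71e-07) and HSPE1 (0.96 ± 0.08, adjusted p 8.64e-06). Without pull-down library 3, 8 heat shock genes were higher and 15 lower, and 11 mitosis genes were higher and 26 lower.

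Of 33 immediate early genes 12 fell and 7 rose, with JUND and MYC at opposite ends. KLF6, a zinc finger factor, rose with 357, 379 and 373 CPM in the pull-down and 145, 148 and 145 CPM in RNA-seq (1.34 ± 0.06, adjusted p 2.61e-07), and BTG2, an antiproliferative gene, fell (-1.6 ± 0.12, adjusted p 4.03e-06). Among 20 cytokine genes 9 fell and 5 rose (12 and 2 with library totals); CXCL8 fell by 2.1 ± 0.13 (-2.1, adjusted p 9.73e-07) and IL32 rose by 1.79 ± 0.08 (adjusted p 1.83e-07). Of 17 histone genes with poly(A) tails 9 rose and 3 fell (median 0.64; 7 and 6 with library totals), among them H2AJ (1.92 ± 0.08, adjusted p 1.93e-07) and H1-10 (1.88 ± 0.08, adjusted p 1.63e-07), while H2AZ1 fell (-0.87 ± 0.07, adjusted p 4.58e-06).

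Energy and protein turnover genes were split likewise. The proteasome had 16 of 32 higher and 7 lower (median 0.25), glycolysis 4 of 17 higher and 9 lower (median -0.35) and the tricarboxylic acid cycle 6 of 21 higher and 11 lower (median -0.31). PGK1, phosphoglycerate kinase, fell by 1.86 ± 0.13 (-1.86, adjusted p 2.06e-06) and ALDOA, aldolase A, rose by 0.83 ± 0.06 (adjusted p 1.7e-06). Translation factors (14 higher and 19 lower of 43), aminoacyl-tRNA synthetases (5 and 9 of 23), lysosomal genes (14 and 15 of 44), cytoskeletal genes (15 and 11 of 37), cholesterol synthesis genes (6 and 12 of 23), genes of microRNA effectors (4 and 12 of 23) and KRAB zinc finger genes of chromosome 19 (8 and 15 of 59) had medians from -0.27 to 0.07. Scaled by library totals, the medians of the proteasome, lysosomal, cytoskeletal and aminoacyl-tRNA synthetase lists lay below 0 (-0.01, -0.24, -0.25 and -0.18), beside -0.26 for all genes. That scaling also gave 11 lower proteasome genes, 1 higher glycolysis gene, 3 higher genes of the tricarboxylic acid cycle, 8 higher lysosomal, 19 lower cytoskeletal and 25 lower KRAB zinc finger genes. In the translation factors, EIF2S2 rose by 1.61 ± 0.08 (adjusted p 2.96e-07) and EIF3L fell by 1.49 ± 0.09 (-1.49, adjusted p 1.07e-06), although 51.8% of its exon bases also lie in exons of another gene. Mesothelial markers rose for 5 of 13 and fell for 3, squamous markers rose for 1 of 28 and fell for 3, and 0 of 5 leukocyte markers passed. Without pull-down library 3, 1 of 29 squamous markers was higher and 11 were lower; with library totals 5 squamous and 6 mesothelial markers were lower.

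Genes named by the series were examined with this control bait as well. WEE1, a kinase that restrains entry into mitosis, had 19.9, 17.3 and 13.1 CPM in the pull-down and 32 to 36.7 CPM in RNA-seq (-1.05 ± 0.14, adjusted p 0.000171), whereas PKMYT1, its membrane-bound relative, had 70, 67.3 and 57.2 CPM in the pull-down and 31.9 to 34.1 CPM in RNA-seq (0.98 ± 0.1, adjusted p 2.04e-05). PKMYT1 did not pass with the replicate block, length and GC offset (0.28, adjusted p 0.0673). CDK4, a kinase of the G1 phase that shares 43.2% of its exon bases with a gene on the opposite strand, fell 1.99-fold (-0.99 ± 0.1, adjusted p 2.13e-05) and VEGFA, an angiogenic growth factor, by 0.79 ± 0.21 (-0.79, adjusted p 0.00906). CCND1, cyclin D1, was near RNA-seq (0.11 ± 0.09, adjusted p 0.312). GAPDH, often used as a reference transcript, had 4647, 4549 and 3209 CPM in the pull-down and 2929, 2969 and 2993 CPM in RNA-seq. It rose (0.48 ± 0.12, adjusted p 0.0071), but not when scaled by library totals (adjusted p 0.14) or with the length and GC offset. With the control mimic at 72 h GAPDH was instead lower in the pull-down (-0.34 ± 0.03, adjusted p 7.88e-06).

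A sequence shared by many 3′ UTRs marked another difference, found after seeing the data. The most frequent 12-letter word of balanced composition in the 3′ UTRs of 19102 genes lies in 9.16% of them, and its reverse complement in 8.61%. It is known as part of the Alu repeat (no repeat annotation was used here), a primate transposable element that carries an internal and a terminal stretch of A in its sense direction and reads as stretches of T in the other. Both are shown because transcripts holding only 1 of them differed by its orientation; capitals mark the 7 letters discussed next.
Alu word, sense: cctGTAATCCca
Alu word, reverse complement: tgGGATTACagg

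Genes with the sense word alone in the 3′ UTR had a median of 0.03 (979 genes, 29.6% higher and 26% lower), and genes with the reverse complement alone -0.3 (951 genes, 15.8% higher and 40.5% lower), although the median 3′ UTR was 2872 bases for the sense and 3061 for the reverse complement genes. Genes with both had a median of 0.04 (451 genes, 30.6% higher and 30.8% lower), near that of the sense word alone. Genes with neither word had a median of -0.02 at a shorter median 3′ UTR of 1062 bases, of which 28% were higher and 30.8% lower. Within the longest 3 quintiles of 3′ UTR length, genes with the sense word alone had medians of 0.13, 0.03 and -0.07, against -0.2, -0.3 and -0.25 for genes with neither word. Genes with the reverse complement alone had -0.22, -0.37 and -0.29 there, a little below those with neither word. In each quintile of GC content the sense genes had the higher median of the sense and neither classes, by the most in the middle quintile (0.16 against -0.2). From the lowest GC quintile up, the reverse complement genes had medians of -0.48, -0.41, -0.21, 0.19 and 0.31. Those with neither word had -0.5, -0.4, -0.2, 0.17 and 0.61, so the 2 classes were apart mainly in the highest quintile.

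**Figure D5:**
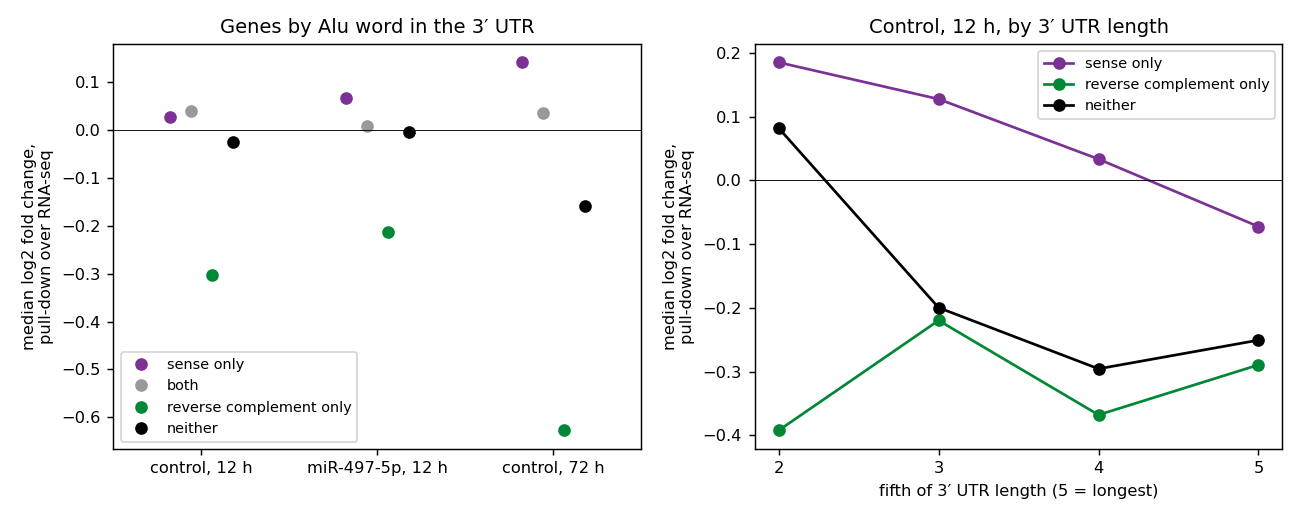
Left, median log2 fold change of pull-down over RNA-seq for genes with the Alu word in the sense direction only, in both directions, as reverse complement only or in neither, for the control mimic at 12 h, miR-497-5p at 12 h and the control mimic at 72 h. Right, the medians with the control mimic at 12 h in quintiles 2 to 5 of 3′ UTR length; the sense genes lie above the others in each, for example 0.03 against -0.3 for neither word in quintile 4.

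The word was not alone. The log2 fold change was fitted on the log2 length and the GC content of the transcript and of its 3′ UTR, with square and cube terms. Remainders of this fit were limited to 3 in size. All 7-letter words held by at least 150 genes were then ranked by their mean remainder times the square root of the number of genes. GTAATCC came first of 15407, with a mean remainder of 0.14 in 2178 genes, and its reverse complement GGATTAC came 8791st (mean remainder -0.005 in 2130 genes). Of the genes holding any 1 of the first 20 words, 46.6% to 68.3% also held the 12-letter Alu word, against 10.6% of all genes in the fit. Genes with the sense word alone and a run of 10 or more A had a median of 0.12 (674 genes), and those with it but no such run -0.19 (305 genes). Genes with the Alu word in neither direction were split by their runs. The median was -0.12 with a run of A only (1077 genes) and -0.31 with a run of T only (1375 genes). It was -0.27 with both runs (639 genes) and 0.07 with neither run (8045 genes). The classes also differed in length, with a median 3′ UTR of 2073, 2169, 3509 and 749 bases. After the fit the median remainders were 0.065, -0.095, -0.002 and -0.013 in the same order. With the length and GC offset the medians were 0.054, -0.102, 0.041 and 0.001. Genes with a run of A only thus lay below genes with no run before these adjustments and above them after.

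The control effect at 12 h was set beside the same contrast in 2 other conditions that share no library with it. With miR-497-5p at 12 h, 21.1% of 16017 genes were higher and 22.1% lower (43.2% in all); 5649 genes were called in both conditions, 65.1% of the genes called with the control and 83.1% of those called with miR-497-5p among genes tested in both, and 99.3% of them had the same direction. With the control mimic at 72 h, 32.5% of 15911 genes were higher and 34.3% lower (66.8% in all); 7066 genes were called at both times, 82.1% of the 12 h and 68.7% of the 72 h calls, and 88.4% had the same direction. GC content had a rho of 0.42 at 12 h with the control, 0.34 with miR-497-5p and 0.45 at 72 h, whereas length had -0.28, -0.12 and -0.07. The sense and reverse complement Alu genes had medians of 0.07 and -0.21 with miR-497-5p, and 0.14 and -0.63 at 72 h.

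The control effect differed between the 12 h and 72 h libraries for many genes. Libraries of the times are separate sets, so time cannot be told apart from other differences between those sets. In a test of the difference between the effects over the 12 control libraries, 25% of 17545 genes had a higher and 19.2% a lower effect at 12 h than at 72 h. Among the 80 ribosomal protein genes 68 had a higher and 6 a lower effect at 12 h (median difference 1.09): at 72 h these genes took 15.2% of counts in each pull-down library, against 19% to 19.1% in RNA-seq. All 13 mitochondrial mRNAs were lower in the pull-down at 72 h (median -2.72), and 12 of them had a higher effect at 12 h, that is, a smaller loss. CCNK had 1.45, 3.4 and 1.92 CPM in the pull-down and 20.6, 20.8 and 22 CPM in RNA-seq at 12 h, and 0.054, 0 and 0 CPM in the pull-down and 9.27, 7.12 and 7.85 CPM in RNA-seq at 72 h. Its effect was called higher at 12 h (adjusted p 4.76e-05), and with hardly a count in the 72 h pull-down the size of that difference was not measured.

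Few genes were called for a difference between the baits. Over the 12 libraries of 12 h, 0.357% of 17078 genes (61) had a higher and 0.984% (168) a lower effect with the control than with miR-497-5p. In simulated counts a test of a difference between effects found fewer true changes than the main test. In simulated counts for the difference between the times, 38% of 2-fold lower and 54% of 2-fold higher differences were called. In the simulated main test the percentages were 78 and 80. The difference between the baits was not simulated. The simulations changed 50 genes at each size and direction, among 15855 genes for the difference and 15625 for the main test. All genes of an assay had 1 common spread. In the data 55.3% of genes were called in the main test, so these percentages do not carry over to the data. With 1 library left out, 6 to 224 genes were higher and 36 to 468 lower. Leaving out any 1 of the RNA-seq libraries of either bait gave 6 to 10 higher and 36 to 49 lower. The lowest counts came without control RNA-seq library 2, and 224 were higher without control pull-down library 3. JUND had the largest higher effect with the control: 253, 298 and 354 CPM in the control pull-down and 42.2, 38.9 and 37.6 CPM in its RNA-seq, and 82.9, 71.5 and 80.2 CPM in the miR-497-5p pull-down and 54.5, 43 and 46.8 CPM in its RNA-seq (difference 2.2 ± 0.17, adjusted p 1.79e-05, levels scaled over all libraries). It was higher in the pull-down under both baits, by 2.98 ± 0.12 with the control and 0.71 ± 0.11 with miR-497-5p. Of the 80 ribosomal protein genes 14 had a higher and 1 a lower effect with the control (median difference 0.29).

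Words of the 3′ UTR also separated the baits. The mature miR-497-5p, from RefSeq (GRCh38.p14, chr17:7017979-7017999, minus strand), is shown with its seed, bases 2 to 8, in capitals.
hsa-miR-497-5p: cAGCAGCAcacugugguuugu
The word GCTGCTA, which pairs with bases 2 to 7 of this microRNA and has an A opposite base 1, had the lowest rank of 15485 words in the difference of control minus miR-497-5p effects (mean remainder -0.08 in 1483 genes), and TGCTGCT, which pairs with bases 2 to 8, came 89th from the bottom. In the control effect itself GCTGCTA came 8965th of 15407, with a mean remainder of -0.007. The sequence of the control mimic was not analysed here.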

How the data were processed

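Counts per gene were deposited by the authors as 1 table per library. Per the submitters' processing notes, the tools were Trimmomatic 0.36, STAR 2.5.2b on GRCh38, and featureCounts from Subread 1.5.2; per the labels' design text, only unique reads within exons were counted. The strand setting and annotation release are not given in the sources used here. Of 57500 gene identifiers 98.1% were found in GENCODE 44, which gave symbols, coordinates, lengths and GC content. The members, lists and word analysis were chosen with earlier results of these data known. The main test was edgeR 4.0.16 (R 4.3.3; quasi-likelihood, robust, TMM, filterByExpr) on the 6 libraries, threshold adjusted p 0.05; differences used contrasts over 12 libraries. Alternatives used DESeq2 1.42.0 and limma 3.58.1. Named genes were 6 genes of the study, the 15 genes with a symbol that rose most and the 15 that fell most (mean of at least 5 CPM, groups apart), up to 4 called members per list by adjusted p, all members of lists of up to 13, the 10 most counted in the pull-down, and the 5 largest per direction in each difference; others are said to be exceptions. The fits were tested on counts simulated from the mean level of each gene and 1 common spread per assay. Count totals (18127272 to 30602007 per library) limit precision for genes of low level. Exact permutation tests over libraries were used for shares.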

Additional observations from a re-analysis of the deposited data

Results flagged for a closer look

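The pull-down effect with the control mimic at 12 h differed from the effect in another condition, by a test of the difference itself (edgeR's quasi-likelihood test, Benjamini-Hochberg adjusted), for 20 genes picked by size at a mean of at least 5 CPM. Against the control at 72 h the fitted effect at 12 h was higher by 7.95 for BOLA2-SMG1P6, 5.39 for C9orf64, 5.36 for CCNK, 4.51 for RNFT1 and 4.44 for RUSF1 on the log2 scale. These sizes are fitted values and not measured folds, since the 72 h pull-down held 0 to 0.263 CPM of each. All 5 were lower in the pull-down at both times; BOLA2-SMG1P6 had 3.59 to 3.81 CPM in the pull-down and 15.5 to 17.3 CPM in RNA-seq at 12 h, and no count in the pull-down and 4.73 to 5.85 CPM in RNA-seq at 72 h. Exons of BOLA2-SMG1P6, CCNK and RUSF1 share 43.5%, 59.5% and 40.7% of their bases with another gene.

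The effect at 12 h was lower than at 72 h for NBPF8 (-4.86), TMEM52B (-4.27), KRT17 (-4.23), SRXN1 (-3.95) and LRRC37A16P (-3.93); KRT17 did not pass by limma voom (adjusted p 0.381). NBPF8 had 2.55 to 4.49 CPM in the pull-down and 7.54 to 9.05 CPM in RNA-seq at 12 h, and 26.4 to 44.8 CPM in the pull-down and 2.38 to 2.72 CPM in RNA-seq at 72 h, so it changed direction. At 12 h KRT17, a squamous keratin, lay between 2.17 and 11 CPM in the pull-down and between 7.95 and 38.8 CPM in RNA-seq, while the summed squamous markers also varied in these libraries. Of SRXN1, 85% of exon bases lie in exons of another gene on the same strand.

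Against miR-497-5p at 12 h the control effect was higher for JUND (2.2), TRIM8-DT (1.57), GPS2 (1.4), GTPBP2 (1.4) and ELF4 (1.36); 52.5% of the exon bases of GPS2 lie in exons of another gene. ELF4, an ETS transcription factor, had 65 to 93.6 CPM in the pull-down and 44.8 to 47 CPM in RNA-seq with the control, and 30.8 to 41.7 CPM in the pull-down and 56.9 to 63.7 CPM in RNA-seq with miR-497-5p. The control effect was lower for CDH1 (-3.06), KLK5 (-3.01), MYH14 (-2.78), OLFML2A (-2.53) and ITGB4 (-2.41). KLK5, a kallikrein protease, had 0.413 to 3.97 CPM in the pull-down and 1.48 to 2.91 CPM in RNA-seq with the control, and 18.5 to 20.1 CPM in the pull-down and 2.11 to 2.76 CPM in RNA-seq with miR-497-5p. Squamous markers took 0.0393% to 0.108% of counts in the control pull-down, 0.0543% to 0.116% in its RNA-seq, 0.0498% to 0.15% in the miR-497-5p pull-down and 0.0359% to 0.151% in its RNA-seq; their part in these differences was not tested.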

How the results depend on the processing

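Over 176 named genes that were called, refitted in 18 other ways, 3119 results kept direction and call and 47 lost the call; no direction reversed. Called genes numbered 4473 higher and 4438 lower by DESeq2, and 3512 to 4834 higher and 3641 to 5032 lower with 1 library left out. Of genes changed at least 2-fold, library totals gave 983 higher and 2485 lower, the length and GC offset 883 lower, and a mean of at least 5 CPM 838 lower. Replicate numbers did not pair the libraries (correlations -0.104, 0.0332 and -0.157); with a replicate block 3935 genes were higher and 4351 lower, and with the replicate block, length and GC offset 1120 were at least 2-fold higher and 875 lower. The difference between control and miR-497-5p depended most on the setting: 33 higher and 366 lower with library totals, 113 higher with limma voom, 176 higher and 397 lower with no filter, 104 lower with the replicate block, and 6 to 224 higher and 36 to 468 lower with 1 library left out. The lowest counts came without RNA-seq control library 2 (6 and 36), and each other RNA-seq library left out gave at most 10 higher and 49 lower. The highest lower count came without miR-497-5p pull-down library 1 (468). Without control pull-down library 3, 224 were higher. TRIM8-DT, CDH1, MYH14, GPS2, KLK5, ITGB4, GTPBP2 and OLFML2A lost the call of this difference in at least 1 setting, and JUND in none. For mitochondrial mRNAs, MT-ND2, MT-CO2 and MT-ND5 did not pass with no filter (adjusted p 0.104, 0.0606 and 0.0965), and BTD did not in 5 of the 6 fits with 1 library left out (adjusted p 0.0516 to 0.133). The causes were not tested. Depth limits genes of low level.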
